A study of Arabidopsis thaliana with 12 samples.

Results

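A set of 85 nuclear genes of Arabidopsis thaliana had a higher transcript level in leaves of the tpt-2 mutant after 9 h of strong light than in the other 3 groups of the study. RNA had been sequenced from leaves of tpt-2 and of Col-0, its wild-type accession, with 3 biological replicates in each group. The groups were tpt-2 at 9 h, Col-0 at 9 h, tpt-2 at 18 h and Col-0 at 18 h. All plants were 21 d old, had been raised in soil under short days of 10 h, and were put into 500 µmol photons m-2 s-1 as a night ended, so that 9 h fell within their usual light period and 18 h after its usual end. No group was sampled before the shift or kept in growth light, so time in strong light and time of day cannot be told apart. Whether a replicate was 1 plant or a pool of plants is not given in the sources used here.

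The genes were found in the deposited table of FPKM (fragments per kilobase of transcript, scaled to the depth of the library), which holds 32833 genes, 32548 of them nuclear. Each gene was put on the log2(FPKM + 1) scale and averaged over the 3 libraries of a group. A gene was taken where its tpt-2 9 h mean lay at least 1 log2 unit above each of the other 3 group means and its mean in tpt-2 at 9 h was at least 5 FPKM. These thresholds were met by 93 genes, and 8 of them belonged to 15 loci that were set aside by name, which left 85. The levels at 9 h in tpt-2, and their distance from every other group, therefore describe the choice of genes and carry no test here. With the same thresholds, 22 genes were highest in Col-0 at 9 h, 14 in tpt-2 at 18 h and 50 in Col-0 at 18 h.

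TPT, the gene disrupted in tpt-2, encodes the triose phosphate/phosphate translocator of the inner chloroplast envelope. By day it exports triose phosphates made by photosynthesis to the cytosol in exchange for phosphate, and the cytosol turns them into sucrose. A leaf without it can still send out carbon as sugars released from starch. Plant cells short of sugar are known to activate the kinase SnRK1 and bZIP transcription factors, and with them genes of autophagy, protein turnover and amino acid breakdown. Leaf growth draws on another set of genes, for expansins, xyloglucan-modifying enzymes and auxin responses, many of which follow the time of day.

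TPT itself had 2.52 to 3.85 FPKM in the tpt-2 9 h libraries, against 328 to 448 FPKM in Col-0 at 9 h, and 2.76 to 3.15 FPKM in tpt-2 at 18 h, against 406 to 465 FPKM in Col-0 at 18 h. The 5 leaf mesophyll markers checked (genes of Rubisco, its activase, a light-harvesting protein and phosphoribulokinase) summed to between 33716 and 42973 FPKM in every library. Guard cell markers summed to between 25.8 and 36.6 FPKM, and root and floral markers to at most 0.771 FPKM. Seed storage genes reached 12.3 FPKM in a library of Col-0 at 18 h and at most 0.232 FPKM in the other groups. The depth was 12.3 to 14.3 M fragments (M for 1e06) in 11 libraries and 25.7 M in replicate 1 of Col-0 at 18 h.

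Of the 85 genes, 81 encode proteins, 2 are tRNA genes, 1 is the gene of the microRNA miR167d and 1 is another non-coding RNA. They lie on all 5 chromosomes, with 27 on chromosome 1, 19 on chromosome 2, 8 on chromosome 3, 9 on chromosome 4 and 22 on chromosome 5. The only directly adjacent pairs are AT1G57980 with PUP18 (331 bp apart), SCPL13 with SNG1 (2776 bp) and ATG8E with AT2G45180 (396 bp), all on the same strand within the pair.

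In the promoters of the 85 genes TATCCA was frequent, a sequence known from rice alpha-amylase promoters that respond to sugar shortage. It was among 12 motifs searched on both strands from 250 bases before to 50 bases after the annotated start (RefSeq TAIR10.1), and 81 of the 85 genes had a promoter there. TATCCA stood in 34 of these 81 promoters, 42.0%, against 16.7% of the 17020 promoters of all genes tested below. Of the 34, 28 had a match upstream of the start, and 14 of the 48 TATCCA matches lay downstream of it. GATAAG, the I-box of light-regulated promoters, stood in 23 (28.4%, against 14.9%), and the evening element AAAATATCT of clock-regulated promoters in 9 (11.1%, against 3.14%). Both TATCCA and GATAAG were present in 17 promoters, and in 12 of these the matches share bases, as in CTTATCCA. The following stretches, 100 bases each, are shown because they carry these matches upstream of genes described below. Each is read 5′ to 3′ on the strand of its gene, and capitals mark a match to TATCCA, to GATAAG or to the evening element in either orientation.
J8, chr1:30404714-30404813, minus strand, bases -100 to -1: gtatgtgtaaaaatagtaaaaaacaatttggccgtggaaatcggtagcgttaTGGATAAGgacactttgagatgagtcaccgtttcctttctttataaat
ACHT5, chr5:24707345-24707444, plus strand, bases -100 to -1: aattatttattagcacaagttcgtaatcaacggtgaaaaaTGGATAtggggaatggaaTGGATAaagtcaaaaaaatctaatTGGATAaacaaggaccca
AT5G24490, chr5:8365501-8365600, plus strand, bases -100 to -1: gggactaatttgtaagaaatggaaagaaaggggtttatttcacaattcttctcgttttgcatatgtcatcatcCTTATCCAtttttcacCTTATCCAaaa
AILP1, chr5:6423000-6423099, plus strand, bases -153 to -54: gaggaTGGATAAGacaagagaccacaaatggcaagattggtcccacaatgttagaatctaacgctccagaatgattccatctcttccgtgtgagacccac
TPS11, chr2:8108752-8108851, plus strand, bases -146 to -47: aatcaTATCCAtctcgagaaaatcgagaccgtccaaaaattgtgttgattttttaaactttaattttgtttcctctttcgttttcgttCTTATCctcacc
EXPA8, chr2:16950791-16950890, minus strand, bases -185 to -86: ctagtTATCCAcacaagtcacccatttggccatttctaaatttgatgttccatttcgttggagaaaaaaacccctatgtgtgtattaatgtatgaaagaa
The ACHT5 stretch held 3 TATCCA matches, all in the reverse orientation TGGATA, and that of AT5G24490 held CTTATCCA at 2 places.

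The other 9 motifs differed less or were less frequent in the 81 promoters. The G-box CACGTG stood in 7.41% of the 81, against 9.05% of all. The related CACATG stood in 14.8%, against 12.6%. The auxin response element TGTCTC stood in 16.0%, against 13.4%, and the W-box core TTGAC in 43.2%, against 50.01%. TGGGCC, found in many promoters of ribosomal protein genes, stood in 11.1%, against 20.3%, and AAACCCTAA in 0, against 3.42%. AAAAATCT stood in 6.17% (8.28% of all), ACTCAT in 13.6% (13.9% of all) and ACGTGGC in 1.23% (4.98% of all). The guanine and cytosine content was 31.0% in the 81 promoters and 32.1% in all. The shares are a description of letters in a window and were not tested, and the motifs were chosen with earlier results of these data known. By role, TATCCA stood in 5 of 8 promoters of chaperone, redox and organelle genes, 3 of 4 of protein turnover genes, 4 of 8 of enzyme genes and 3 of 7 of low-energy genes. The counts were 2 of 3 for signalling genes and 12 of 25 for genes with no role given. They were 3 of 11 for transcription and chromatin, 1 of 6 for cell wall, 1 of 6 for transport and 0 of 3 for stress protein genes. The genes that met the same thresholds in the other groups held TATCCA in 3 of 21 promoters (14.3%, highest in Col-0 at 9 h), 4 of 14 (28.6%, highest in tpt-2 at 18 h) and 7 of 46 (15.2%, highest in Col-0 at 18 h). GATAAG and the evening element were not more frequent in the 85 than in each of those sets. Among the genes highest in Col-0 at 9 h, GATAAG stood in 7 of 21 promoters (33.3%) and the evening element in 3 of 21 (14.3%). GATAAG stood in 1 of 14 (7.14%) and 7 of 46 (15.2%) promoters of the genes highest at 18 h in tpt-2 and in Col-0, and the evening element in 0 of both.

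**Figure D1:**
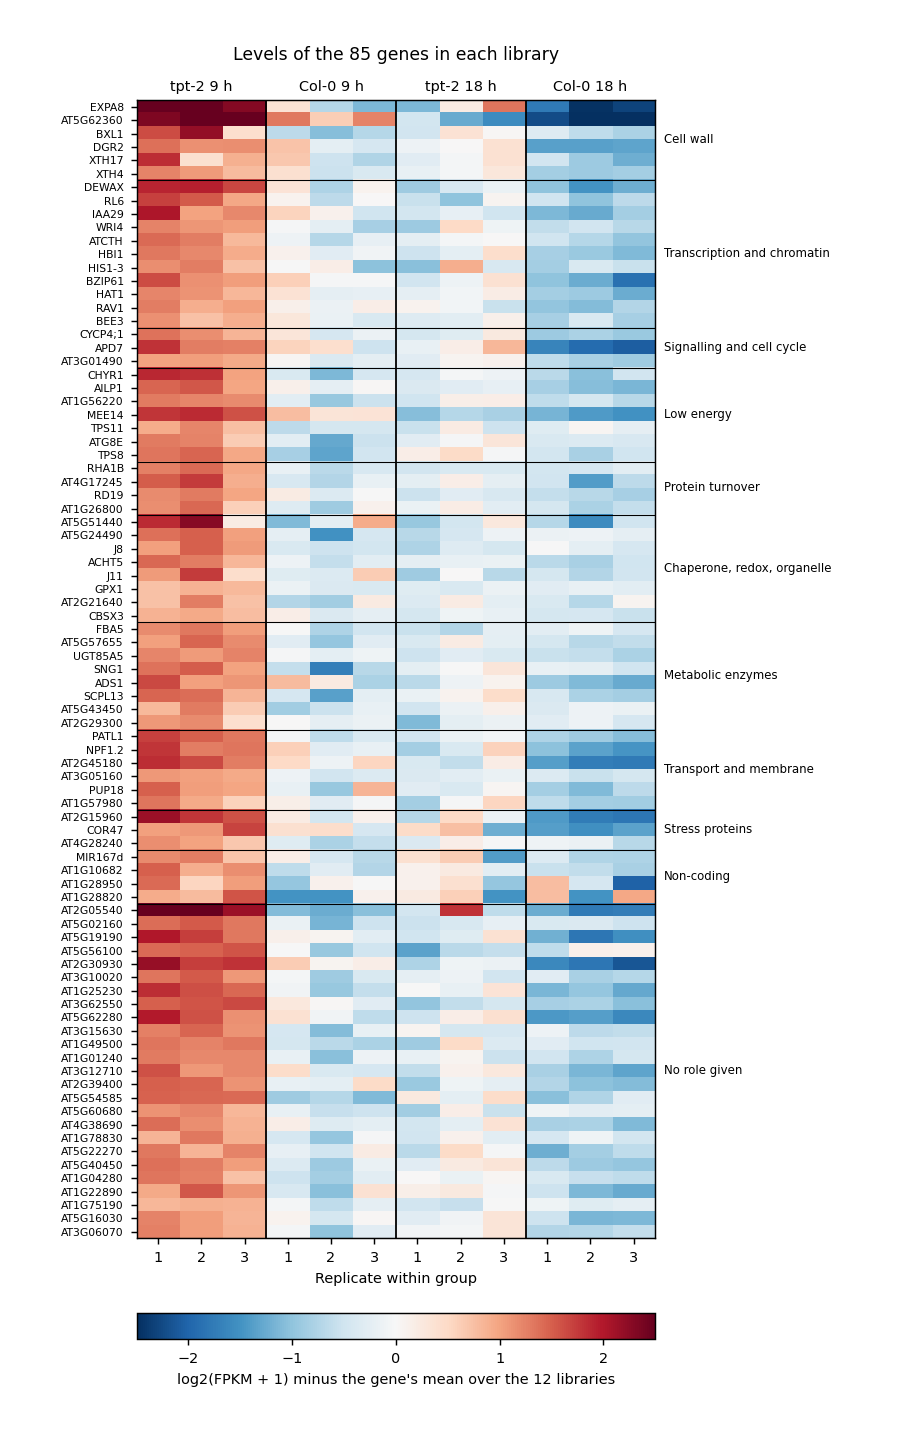
Level of each of the 85 genes (down the page, grouped by annotated role) in each of the 12 libraries (across, 3 replicates per group), as log2(FPKM + 1) minus the mean of the gene over the 12 libraries; colours saturate at the ends of the scale. All 3 tpt-2 9 h columns are the highest for 79 of the 85 genes, as the choice of genes favours, while the Col-0 18 h columns have the lowest mean for 5 of 6 wall and all 11 transcription and chromatin genes, but for 4 of 8 chaperone, redox and organelle genes.

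The median of the 85 group means was 18.5 FPKM in tpt-2 at 9 h, 5.39 FPKM in Col-0 at 9 h, 5.93 FPKM in tpt-2 at 18 h and 3.01 FPKM in Col-0 at 18 h. In tpt-2 at 9 h the means ran from 5.08 to 1144 FPKM, with 21 genes under 10 FPKM and 16 at 100 FPKM or more. The margin, the log2 distance from tpt-2 9 h to the closest other group, had a median of 1.27 and a range of 1.0006 to 2.39. It was under 1.1 for 22 genes and at least 1.5 for 19. The closest group was tpt-2 at 18 h for 46 genes, Col-0 at 9 h for 29 and Col-0 at 18 h for 10. Col-0 at 18 h was the lowest group for 61 genes. The 3 tpt-2 9 h libraries lay above all 9 other libraries for 79 genes, which is part of the choice (the share among all 17585 genes tested was 7.32%). They lay above all Col-0 9 h libraries for 82 genes, which is part of the choice too (23.9% of all genes tested).

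The genes nearest the thresholds were close in value to genes left out. AT3G06070, CBSX3 and AT2G29300 were just inside, with margins of 1.0006, 1.0057 and 1.0079. AGP7, AT4G14270 and AT3G23480 were just outside, with 0.995, 0.993 and 0.993. On the FPKM threshold, AT1G26800, the tRNA gene AT1G28820 and XTH17 were just inside with 5.08, 5.22 and 5.38 FPKM. CIPK20, AT3G49790 and AT3G53250 were just outside with 4.995, 4.77 and 4.47 FPKM, among 19 genes that met the margin alone.

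Libraries within a group were not equally high. In tpt-2 at 9 h, the median over the 85 genes was 20.49 and 21.4 FPKM in replicates 1 and 2 and 14.0 FPKM in replicate 3, which was the lowest of its group for 60 genes. Leaving replicate 3 out raised the number of genes that met the rule to 122, 83 of them among the 85. Col-0 at 9 h had medians of 5.99, 4.63 and 5.22 FPKM, with replicate 2 lowest for 61 genes. At 18 h the medians were 4.68, 7.11 and 6.57 FPKM in tpt-2, with replicate 1 lowest for 61 genes, and 3.79, 2.76 and 3.298 FPKM in Col-0, with replicate 3 lowest for 45.

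A pair of comparisons that leave out tpt-2 at 9 h could be tested, although both tests contain the same 3 Col-0 18 h libraries. They are tpt-2 against Col-0 at 18 h, which asks whether a genotype difference was present at the later time, and Col-0 at 18 h against 9 h, which asks how the genes moved with time in the wild type. The rule does not contrast these groups with each other. It does hold each of their means at least 1 log2 unit below that of tpt-2 at 9 h. The choice of genes may therefore favour a direction in both tests, and by how much was not tested. Each was a two-sided limma test on log2(FPKM + 1) of the 17585 genes that averaged at least 1 FPKM over the 12 libraries, with Benjamini-Hochberg adjustment over all of them, and a gene was called at an adjusted p under 0.05. All 85 genes passed the filter, as their level in tpt-2 at 9 h alone ensures. The added 1 makes fold changes of genes with low FPKM appear smaller than they are, and p-values measure the spread between the labelled biological replicates. In leaf RNA, a lower share of cells that express a gene and less of its RNA per cell cannot be told apart.

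At 18 h the genotypes still differed at some of these genes, with tpt-2 higher. The genes called included the phosphatase gene APD7, the cell wall protein gene DGR2, the lipid-transfer protein gene AT2G45180 and the homeodomain gene HAT1. In all, 19 of the 85 genes (22.4%) were called higher in tpt-2 than in Col-0 and 0 were called lower. Over all genes tested, 2.88% were called, 2.0% higher and 0.881% lower. The share of higher calls among all genes depended on the scaling (352 higher and 155 lower as deposited, 175 and 323 after median-ratio scaling, 152 and 220 after quantile normalization), while the 85 genes gave 15 higher and 0 lower after median-ratio scaling and 12 higher and 0 lower after quantile normalization. At an unadjusted limma p under 0.05, 47 of the 85 were higher and 1 was lower, AT5G56100. The median log2 fold change was 0.55 for the 85 genes and 0.09 for all genes, and 74 of the 85 had a positive one. After quantile normalization, which moved the median of all genes to -0.02, that of the 85 was 0.42. All 3 tpt-2 libraries lay above all 3 Col-0 libraries for 49 genes, against 22.1% of all genes, and below them for 0, against 6.86%. The number of calls rested on single libraries: it was 3 without Col-0 18 h replicate 2, 3 without Col-0 18 h replicate 3 and 8 without tpt-2 18 h replicate 2, while the share called among all genes was then 0.608%, 0.631% and 1.01%. The median fold change of the 85 was between 0.53 and 0.56 in these fits. AT2G30930, AT1G25230 and APD7 were called without Col-0 18 h replicate 2, and AT2G30930, APD7 and DGR2 without Col-0 18 h replicate 3. RAV1 and XTH4 were called in 7 of 19 alternatives, PATL1 in 8, EXPA8 and AT5G16030 in 9, and AT5G40450 in 7 of 18, so these calls at 18 h were lost in most settings.

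In Col-0 many of the 85 genes fell with time, most steeply AT5G62360, AT2G30930, APD7 and AT2G45180. Of the 85 genes, 32 (37.6%) were called lower in Col-0 at 18 h than at 9 h and 0 were called higher. Among all genes tested, 28.7% were called, 15.5% lower and 13.1% higher. At an unadjusted limma p under 0.05, 37 of the 85 were lower and 1, SNG1, was higher. The median log2 fold change was -0.41 for the 85 genes and -0.01 for all genes. All 3 Col-0 18 h libraries lay below all 3 Col-0 9 h libraries for 37 genes, against 23.5% of all genes, and above them for 2, against 20.1%. The remaining 53 genes were not called in either direction.

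**Figure D2:**
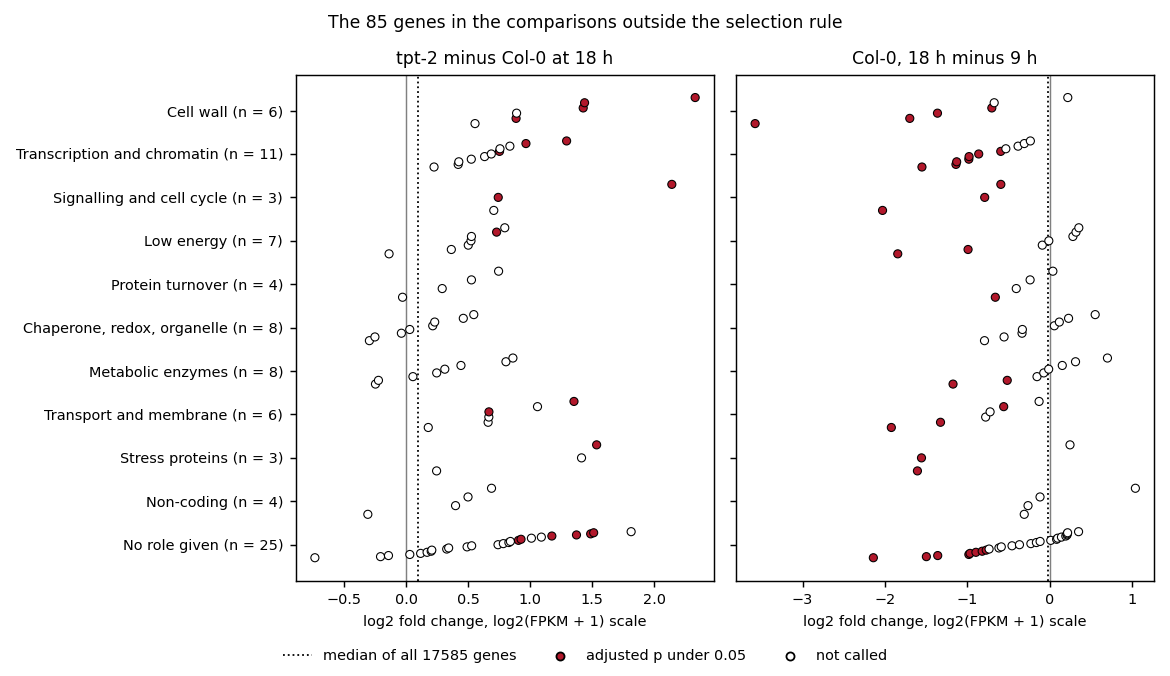
Log2 fold change of each of the 85 genes (points, grouped by annotated role down the page) in tpt-2 against Col-0 at 18 h (left) and in Col-0 at 18 h against 9 h (right), from limma; filled points were called and the dotted line is the median of all 17585 genes. Called genes lie to the right in the left panel (19 higher, 0 lower) and to the left in the right panel (32 lower, 0 higher). The chaperone, redox and organelle genes and the non-coding genes have no call in either panel. The rule bounds the mean of each group compared here from above, so the choice of genes may favour these directions.

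The genes are described below by annotated role. Among the 6 cell wall genes, 4 were called higher in tpt-2 at 18 h and 4 lower in Col-0 at 18 h against 9 h. EXPA8 (chr2:16948791-16950705), an expansin that loosens cell walls, had the largest margin of the 85, 2.39. It had 55.8, 44.2 and 38.3 FPKM in tpt-2 at 9 h, against 9.39, 3.91 and 2.67 FPKM in Col-0 at 9 h. At the later time it had 2.70, 8.23 and 19.4 FPKM in tpt-2, against 1.35, 0.446 and 0.609 FPKM in Col-0. The 3 tpt-2 18 h libraries thus spread over a wide range, but each lay above every Col-0 18 h library. EXPA8 was higher in tpt-2 at 18 h (log2 fold change 2.33, SE 0.52, limma adjusted p = 0.0375, range over the alternatives 0.00853 to 0.141), and fell by 1.699 on the log2 scale in Col-0 at 18 h against 9 h (limma adjusted p = 0.0283, called in 13 of 19 alternatives, range 0.00727 to 0.112).

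AT5G62360 (chr5:25040540-25041504), annotated as a pectin methylesterase inhibitor family protein, had the largest change with time in Col-0 among the 85. It had 53.3, 61.0 and 75.8 FPKM in tpt-2 at 9 h, against 26.2, 15.5 and 24.6 FPKM in Col-0 at 9 h, and 6.92, 3.55 and 2.66 FPKM in tpt-2 at 18 h, against 1.29, 0.536 and 0.920 FPKM in Col-0 at 18 h. At 18 h the tpt-2 libraries were above those of Col-0, and both genotypes were lower than at 9 h. Its log2 fold change was -3.58 in Col-0 at 18 h against 9 h (SE 0.27, limma adjusted p = 4.50e-06) and 1.43 in tpt-2 against Col-0 at 18 h (SE 0.27, limma adjusted p = 0.0209).

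DGR2, a cell wall protein of the DUF642 family, is overlapped on the other strand by a long non-coding RNA gene over 1195 bp. It had 116, 98.0 and 99.8 FPKM in tpt-2 at 9 h, against 72.9, 37.1 and 32.6 FPKM in Col-0 at 9 h, and 40.4, 44.5 and 57.9 FPKM in tpt-2 at 18 h, against 16.6, 16.5 and 17.1 FPKM in Col-0 at 18 h. The Col-0 18 h libraries lay close together, below all others, and DGR2 was higher in tpt-2 at 18 h by 1.44 on the log2 scale (SE 0.23, limma adjusted p = 0.00909). XTH4, a xyloglucan endotransglucosylase/hydrolase that cuts and rejoins xyloglucan chains, averaged 178 ± 27.5 FPKM in tpt-2 at 9 h and 79.5 ± 30.1 FPKM in Col-0 at 9 h (SD, n = 3 each). At 18 h XTH4 averaged 87.5 ± 15.1 FPKM in tpt-2 and 46.4 ± 1.007 FPKM in Col-0 (SD, n = 3 each), and was called higher in tpt-2 (log2 fold change 0.89, limma adjusted p = 0.0468), a call lost in 12 of 19 alternatives (range 0.00703 to 0.148). The other two wall genes, XTH17 and the beta-xylosidase gene BXL1, were not called in either comparison. Their tpt-2 9 h libraries differed widely, with 9.18, 2.74 and 4.23 FPKM for XTH17 and 9.22, 14.1 and 3.42 FPKM for BXL1. After quantile normalization 2 of the 6 wall genes were called higher in tpt-2 at 18 h, with a median of 1.09 against 1.16 as deposited. With any 1 library left out, 0 to 4 of the 6 were called higher at 18 h.

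**Figure D3:**
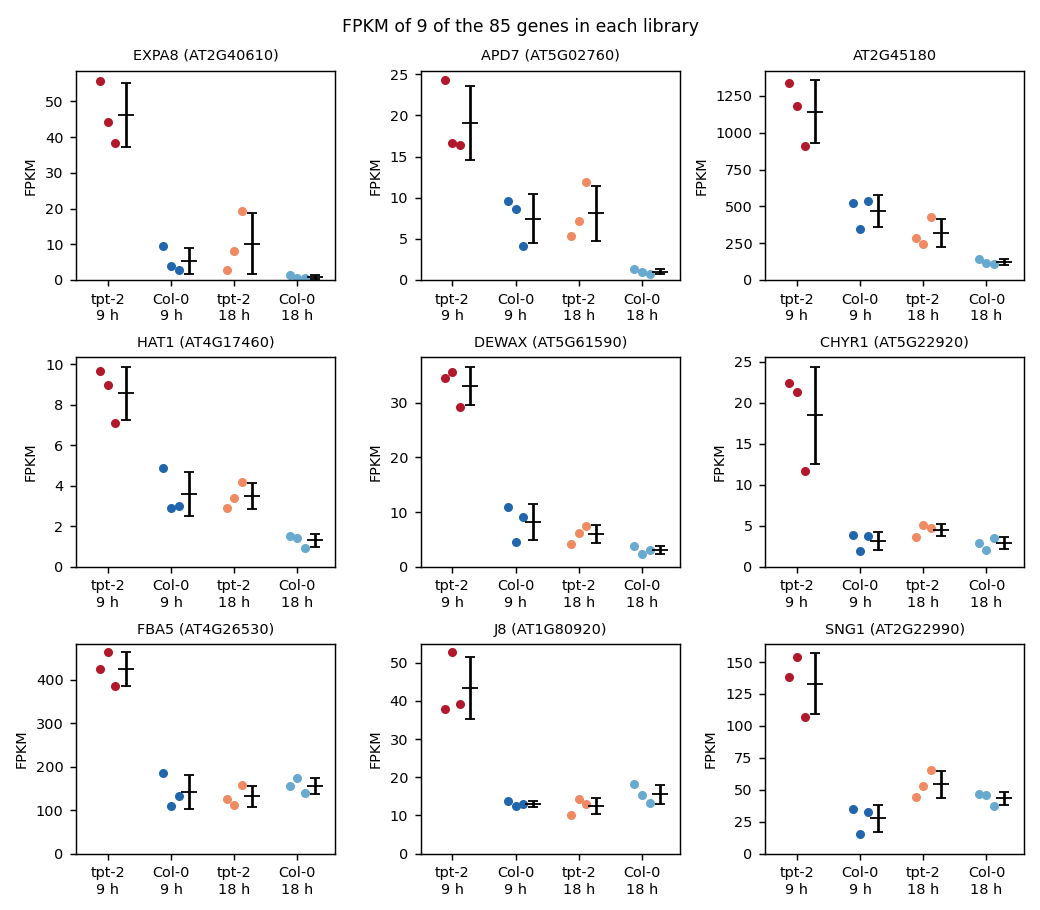
FPKM of 9 of the 85 genes in each library (points), with the mean and SD of each group of 3 beside them; each panel has its own linear axis from 0. EXPA8, APD7, AT2G45180 and HAT1 have Col-0 18 h libraries below all others, while FBA5, J8 and SNG1 have similar levels in tpt-2 and Col-0 at 18 h.

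The 11 transcription and chromatin genes included bHLH, AP2/ERF, homeodomain, bZIP and Aux/IAA proteins. All 11 had a positive fold change in tpt-2 against Col-0 at 18 h and a negative one in Col-0 at 18 h against 9 h, after each scaling tried. The calls were 3 of 11 higher in tpt-2 at 18 h and 7 of 11 lower in Col-0 at 18 h. With quantile normalization 1 of 11 was called at 18 h, and with any 1 library left out 0 to 3 were. BZIP61, a bZIP factor, had 31.4, 22.1 and 20.6 FPKM in tpt-2 at 9 h, against 14.9, 9.28 and 9.35 FPKM in Col-0 at 9 h. At the later time it had 6.52, 8.63 and 12.7 FPKM in tpt-2, against 4.21, 3.44 and 1.90 FPKM in Col-0, so that the genotypes did not overlap at 18 h. BZIP61 was higher in tpt-2 at 18 h (log2 fold change 1.29, SE 0.27, limma adjusted p = 0.0296, called in 12 of 19 alternatives, up to 0.127). It was lower in Col-0 at 18 h (-1.55, SE 0.27, limma adjusted p = 0.00123).

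HAT1, a class II homeodomain-leucine zipper factor of shade and brassinosteroid responses, had 9.66, 8.97 and 7.11 FPKM in tpt-2 at 9 h, against 4.88, 2.92 and 3.0001 FPKM in Col-0 at 9 h. Its levels were 2.93, 3.40 and 4.20 FPKM in tpt-2 at 18 h, against 1.54, 1.43 and 0.950 FPKM in Col-0 at 18 h. At 18 h no tpt-2 library overlapped a Col-0 library. The HAT1 log2 fold change was 0.97 at 18 h (limma adjusted p = 0.0200, called in 14 of 18 alternatives, up to 0.0999). In Col-0 with time it was -0.98 (limma adjusted p = 0.00204). RAV1, an AP2/B3 factor known to restrain growth, averaged 5.93 ± 1.53 FPKM in tpt-2 and 3.06 ± 0.545 FPKM in Col-0 at 18 h (SD, n = 3 each; log2 fold change 0.75, limma adjusted p = 0.0415, range over the alternatives 0.0109 to 0.142). HBI1, a bHLH factor that promotes cell elongation, averaged 44.6 ± 6.28 FPKM in tpt-2 at 9 h and 18.3 ± 2.72 FPKM in Col-0 at 9 h (SD, n = 3 each). At 18 h HBI1 had a log2 fold change of 0.84 and missed the threshold (limma adjusted p = 0.0506), while in Col-0 it was lower at 18 h (-0.86, limma adjusted p = 0.00787). BEE3, a related bHLH gene of brassinosteroid responses, was likewise called in the Col-0 comparison (-0.59, limma adjusted p = 0.0434, called in 9 of 18 alternatives, range 0.0227 to 0.165).

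DEWAX, an ERF that represses wax synthesis genes, had the third largest margin, 1.95. It had 34.5, 35.6 and 29.2 FPKM in tpt-2 at 9 h, against 10.96, 4.58 and 9.14 FPKM in Col-0 at 9 h, and 4.15, 6.20 and 7.43 FPKM in tpt-2 at 18 h, against 3.72, 2.35 and 3.09 FPKM in Col-0 at 18 h. DEWAX was lower in Col-0 at 18 h than at 9 h (-1.13, limma adjusted p = 0.00650) and was not called at 18 h between genotypes (0.76, limma adjusted p = 0.128). WRI4, an AP2 factor that activates wax synthesis in stems, was among the 85 too, with 6.23 ± 0.526 FPKM in tpt-2 at 9 h and 1.63 ± 0.698 FPKM in Col-0 at 9 h (SD, n = 3 each), and was called in neither comparison. IAA29, an auxin-induced Aux/IAA repressor, had 9.40, 4.11 and 4.86 FPKM in tpt-2 at 9 h, against 2.77, 1.75 and 0.811 FPKM in Col-0 at 9 h, and was lower in Col-0 at 18 h (-1.14, limma adjusted p = 0.0126). In Col-0 at 18 h, IAA29 rested on 5, 1 and 6 fragments. HIS1-3, a linker histone gene induced by drought, had 1.37, 8.16 and 2.72 FPKM in the tpt-2 18 h libraries. Replicate 2 of these lay within the range of the tpt-2 9 h libraries (9.87, 10.8 and 7.14 FPKM). ATCTH and RL6, a CCCH zinc finger and a RADIALIS-like MYB gene, were called in neither comparison.

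Among signalling genes, APD7 (AT5G02760, chr5:625254-627124), which encodes a protein phosphatase 2C, was called in tpt-2 against Col-0 at 18 h on the deposited scale and in all 19 alternatives. It had 24.3, 16.6 and 16.4 FPKM in tpt-2 at 9 h, against 9.63, 8.66 and 4.07 FPKM in Col-0 at 9 h. At 18 h the values were 5.33, 7.11 and 11.8 FPKM in tpt-2, against 1.31, 0.909 and 0.733 FPKM in Col-0. The tpt-2 18 h libraries overlapped those of Col-0 at 9 h, and all Col-0 18 h libraries lay below both. The log2 fold change at 18 h was 2.14 (SE 0.30, limma adjusted p = 0.00386, range over the alternatives 0.000968 to 0.0293), and that of Col-0 at 18 h against 9 h was -2.03 (SE 0.30, limma adjusted p = 0.000421). AT3G01490, a protein kinase gene, was also called higher in tpt-2 at 18 h (0.74, limma adjusted p = 0.0157). The cyclin gene CYCP4;1 was called in the Col-0 comparison (-0.79, limma adjusted p = 0.0184, called in 15 of 18 alternatives, up to 0.0762) and not at 18 h (0.71, limma adjusted p = 0.101).

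Of 6 transport and membrane genes, 2 were called higher in tpt-2 at 18 h and 3 lower in Col-0 at 18 h against 9 h. With any 1 library left out, 0 to 2 were called higher at 18 h. The most abundant of all 85 genes was AT2G45180 (chr2:18626188-18627157), annotated as a bifunctional inhibitor/lipid-transfer protein. It had 1339.6, 1179.6 and 914 FPKM in tpt-2 at 9 h, against 526, 344 and 539.7 FPKM in Col-0 at 9 h, and 287, 244 and 427 FPKM in tpt-2 at 18 h, against 144, 112 and 109 FPKM in Col-0 at 18 h. At 18 h all 3 tpt-2 libraries lay above all 3 Col-0 libraries. AT2G45180 was higher in tpt-2 at 18 h by 1.35 on the log2 scale (SE 0.23, limma adjusted p = 0.0104) and lower in Col-0 at 18 h (-1.92, SE 0.23, limma adjusted p = 8.54e-05). PATL1, a patellin of membrane traffic at the forming cell plate, averaged 182 ± 26.0 FPKM in tpt-2 at 9 h and 49.9 ± 10.5 FPKM in Col-0 at 9 h (SD, n = 3 each). At 18 h it was higher in tpt-2 by 0.67 on the log2 scale (limma adjusted p = 0.0474, range over the alternatives 0.0345 to 0.182). NPF1.2, a low-affinity nitrate transporter gene, averaged 41.0 ± 8.47 FPKM in tpt-2 at 9 h and 15.1 ± 5.77 FPKM in Col-0 at 9 h (SD, n = 3 each), and was lower in Col-0 at 18 h (-1.33, limma adjusted p = 0.00926). PUP18, a purine permease gene, its neighbour AT1G57980, annotated as a nucleotide-sugar transporter, and AT3G05160, of the major facilitator superfamily, were called in neither comparison.

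Of 7 genes known from low-energy responses or related to them, 1 was called higher in tpt-2 at 18 h and 2 were called lower in Col-0 at 18 h against 9 h. With any 1 library left out, 0 to 2 were called higher at 18 h. CHYR1, a RING ubiquitin ligase gene of abscisic acid and drought responses, had 22.4, 21.4 and 11.70 FPKM in tpt-2 at 9 h, against 3.87, 1.89 and 3.72 FPKM in Col-0 at 9 h. At the later time it had 3.69, 5.08 and 4.76 FPKM in tpt-2, against 2.94, 2.08 and 3.55 FPKM in Col-0. The genotypes did not overlap at 18 h, but neither test called CHYR1 (limma adjusted p = 0.273 for the genotypes and 0.838 for time in Col-0).

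The class II trehalose-phosphate synthase genes TPS8 and TPS11, whose proteins carry the domains of the enzyme but are thought to act mainly in regulation, had low levels. TPS8 had 11.4, 12.5 and 8.66 FPKM in tpt-2 at 9 h, against 1.78, 0.984 and 2.52 FPKM in Col-0 at 9 h, and 4.50, 5.88 and 3.83 FPKM in tpt-2 at 18 h, against 2.59, 1.79 and 2.48 FPKM in Col-0 at 18 h. TPS11 had 6.58, 8.22 and 5.71 FPKM in tpt-2 at 9 h, against 1.51, 1.92 and 1.94 FPKM in Col-0 at 9 h, and 1.69, 3.57 and 1.77 FPKM in tpt-2 at 18 h, against 2.22, 3.11 and 2.41 FPKM in Col-0 at 18 h. The TPS8 libraries of the genotypes did not overlap at 18 h but the gene was not called (0.80, limma adjusted p = 0.0662), and TPS11, whose libraries did overlap, had a fold change of -0.14 (limma adjusted p = 0.735). ATG8E, which encodes a ubiquitin-like protein of the autophagosome membrane, averaged 23.4 ± 5.71 FPKM in tpt-2 at 9 h and 6.40 ± 2.45 FPKM in Col-0 at 9 h (SD, n = 3 each). Its 18 h means were 10.6 FPKM in tpt-2 and 7.86 FPKM in Col-0 (limma adjusted p = 0.416).

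AILP1 and MEE14 were the low-energy genes that changed with time in Col-0. AILP1, annotated as an aluminium-induced protein, had 333, 356 and 241 FPKM in tpt-2 at 9 h, against 133, 104 and 124 FPKM in Col-0 at 9 h, and 93.8, 99.9 and 105 FPKM in tpt-2 at 18 h, against 67.9, 57.4 and 54.4 FPKM in Col-0 at 18 h. It was higher in tpt-2 at 18 h (0.73, SE 0.14, limma adjusted p = 0.0217, called in 15 of 19 alternatives, up to 0.108). In Col-0 it was lower at 18 h (-0.99, SE 0.14, limma adjusted p = 0.000359). AILP1 overlaps AT5G19150 on the other strand by 2862 bp, and whether counting used the strand is not given in the sources used here. MEE14 had 125, 133 and 109.8 FPKM in tpt-2 at 9 h, against 61.8, 44.7 and 45.7 FPKM in Col-0 at 9 h, and 16.5, 21.4 and 19.96 FPKM in tpt-2 at 18 h, against 15.3, 12.7 and 11.9 FPKM in Col-0 at 18 h. It was low in both genotypes at 18 h, with a log2 fold change of -1.84 with time in Col-0 (SE 0.14, limma adjusted p = 4.25e-06) and 0.50 between genotypes at 18 h (limma adjusted p = 0.0759). AT1G56220, of the dormancy/auxin-associated family, averaged 156 ± 5.68 FPKM in tpt-2 at 9 h and 44.3 ± 10.6 FPKM in Col-0 at 9 h (SD, n = 3 each) and was called in neither comparison.

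Protein turnover was represented by 3 RING finger genes and the cysteine protease gene RD19. RD19 averaged 319 ± 35.5 FPKM in tpt-2 at 9 h and 139 ± 25.9 FPKM in Col-0 at 9 h (SD, n = 3 each). In Col-0 it was lower at 18 h (-0.66, limma adjusted p = 0.00295), and at 18 h the genotypes averaged 107 ± 9.91 FPKM in tpt-2 and 86.8 ± 6.93 FPKM in Col-0 (SD, n = 3 each; limma adjusted p = 0.235). RHA1B, a RING-H2 ligase gene, is a case where the other 3 groups overlapped. It had 25.8, 29.0 and 20.9 FPKM in tpt-2 at 9 h, against 8.76, 6.02 and 7.44 FPKM in Col-0 at 9 h, and 7.02, 7.64 and 7.56 FPKM in tpt-2 at 18 h, against 7.10, 7.32 and 8.32 FPKM in Col-0 at 18 h. AT4G17245, which lies wholly opposite AT4G17243, and AT1G26800 were called in neither comparison.

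The 8 chaperone, redox and organelle genes were called in neither comparison (limma; at an unadjusted p under 0.05, 1 of 8 was higher in tpt-2 at 18 h, and 0 were higher and 1 lower in Col-0 with time). J8 encodes a small DnaJ protein of the chloroplast. It had 37.9, 52.6 and 39.2 FPKM in tpt-2 at 9 h, against 13.7, 12.3 and 13.0 FPKM in Col-0 at 9 h, and 10.2, 14.3 and 13.1 FPKM in tpt-2 at 18 h, against 18.1, 15.3 and 13.3 FPKM in Col-0 at 18 h. GPX1, a chloroplast glutathione peroxidase gene, had 197, 219 and 210.2 FPKM in tpt-2 at 9 h, against 107, 92.1 and 91.1 FPKM in Col-0 at 9 h, and 96.0, 90.9 and 108 FPKM in tpt-2 at 18 h, against 97.7, 105 and 99.2 FPKM in Col-0 at 18 h. For both genes, the 3 groups other than tpt-2 at 9 h overlapped. GPX1 had the smallest standard error of the 85 genes, and its log2 fold changes were -0.04 at 18 h (SE 0.08, limma adjusted p = 0.832) and 0.06 with time in Col-0 (limma adjusted p = 0.663).

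AT5G24490, annotated as a 30S ribosomal protein, had 198, 216 and 156 FPKM in tpt-2 at 9 h, against 64.8, 25.8 and 56.6 FPKM in Col-0 at 9 h. At 18 h it averaged 57.3 ± 11.6 FPKM in tpt-2 and 67.5 ± 2.53 FPKM in Col-0 (SD, n = 3 each). ACHT5, an atypical thioredoxin of the chloroplast, averaged 8.62 ± 2.01 FPKM in tpt-2 at 9 h and 2.34 ± 0.549 FPKM in Col-0 at 9 h (SD, n = 3 each). CBSX3, a mitochondrial protein that regulates thioredoxin, averaged 135 ± 8.77 FPKM in tpt-2 at 9 h and 67.3 ± 13.2 FPKM in Col-0 at 9 h (SD, n = 3 each), close to the threshold of the rule. The mitochondrial small heat shock protein gene AT5G51440 had 34.3, 45.8 and 10.2 FPKM in tpt-2 at 9 h, against 3.51, 7.11 and 17.4 FPKM in Col-0 at 9 h. Replicate 3 was the lowest in tpt-2 and the highest in Col-0, and these libraries overlapped. J11, another chloroplast DnaJ gene, also overlapped between genotypes at 9 h, with 26.2, 43.0 and 16.7 FPKM in tpt-2, against 9.66, 9.33 and 19.2 FPKM in Col-0. XTH17 was the only other member whose tpt-2 and Col-0 libraries overlapped at 9 h.

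Of the 8 metabolic enzyme genes, 0 were called at 18 h between genotypes (limma; 4 higher and 0 lower at an unadjusted p under 0.05) and 2 were lower in Col-0 at 18 h. FBA5, a cytosolic fructose-bisphosphate aldolase that acts on triose phosphates, had 425, 463 and 386 FPKM in tpt-2 at 9 h, against 185, 109 and 133 FPKM in Col-0 at 9 h, and 126, 111 and 158 FPKM in tpt-2 at 18 h, against 156, 173 and 138 FPKM in Col-0 at 18 h. The groups other than tpt-2 at 9 h overlapped, and the FBA5 log2 fold change at 18 h was -0.25 (SE 0.18, limma adjusted p = 0.446). SNG1 makes sinapoylmalate, a sunscreen of the leaf epidermis, and its neighbour SCPL13 encodes a related serine carboxypeptidase-like protein. SNG1 had 138, 154 and 107 FPKM in tpt-2 at 9 h, against 35.0, 15.5 and 32.3 FPKM in Col-0 at 9 h, and 44.7, 52.7 and 65.5 FPKM in tpt-2 at 18 h, against 46.7, 45.5 and 37.4 FPKM in Col-0 at 18 h. All Col-0 9 h libraries lay below those of the other groups, and the genotypes overlapped at 18 h. In Col-0, SNG1 had a log2 fold change of 0.70 at 18 h against 9 h (SE 0.26, limma adjusted p = 0.0594). SCPL13 averaged 11.4 ± 2.17 FPKM in Col-0 at 18 h and 12.04 ± 4.74 FPKM in Col-0 at 9 h (SD, n = 3 each). Reads of these related neighbours could be divided wrongly between them.

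The other enzyme genes were less abundant. UGT85A5, a glycosyltransferase, and ADS1, a fatty acid desaturase, were lower in Col-0 at 18 h than at 9 h (-0.51, limma adjusted p = 0.00445, and -1.17, limma adjusted p = 0.0220). AT5G57655, annotated as a xylose isomerase, averaged 38.8 ± 6.27 FPKM in tpt-2 at 9 h and 11.2 ± 3.01 FPKM in Col-0 at 9 h (SD, n = 3 each). The dehydrogenase family gene AT2G29300 and the oxygenase family gene AT5G43450 were called in neither comparison.

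Stress protein genes were led by AT2G15960, annotated as a stress-induced protein. It had 53.2, 41.7 and 36.1 FPKM in tpt-2 at 9 h, against 13.2, 7.98 and 12.3 FPKM in Col-0 at 9 h, and 6.55, 16.4 and 10.2 FPKM in tpt-2 at 18 h, against 3.64, 2.68 and 2.51 FPKM in Col-0 at 18 h. The genotypes did not overlap at 18 h. AT2G15960 was higher in tpt-2 at 18 h by 1.54 on the log2 scale (SE 0.27, limma adjusted p = 0.0136). AT4G28240, of the wound-responsive family, was called in neither comparison. COR47, a dehydrin gene of cold and drought responses, had 105, 109 and 167 FPKM in tpt-2 at 9 h, against 67.5, 69.6 and 37.6 FPKM in Col-0 at 9 h, and 71.5, 85.8 and 21.2 FPKM in tpt-2 at 18 h, against 18.9, 16.9 and 19.6 FPKM in Col-0 at 18 h. Replicate 3 of tpt-2 at 18 h stood well below the other two for COR47, and the gene was not called there (1.42, limma adjusted p = 0.0881, range over the alternatives 0.00348 to 0.251). In Col-0 it was lower at 18 h (-1.56, limma adjusted p = 0.0157, up to 0.0585 in the alternatives).

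The remaining 25 protein-coding genes carry no role in the annotation that could be used for grouping. Their tpt-2 9 h means ran from 6.11 to 468 FPKM and their margins had a median of 1.37. Of these, 6 were called higher in tpt-2 at 18 h and 8 lower in Col-0 at 18 h. With any 1 library left out, 1 to 9 were called higher at 18 h. AT2G30930 (chr2:13162074-13163497), an uncharacterized protein gene, was called at 18 h in all 19 alternatives, like APD7. It had 46.5, 33.8 and 36.0 FPKM in tpt-2 at 9 h, against 15.3, 10.02 and 10.7 FPKM in Col-0 at 9 h, and 5.14, 8.74 and 8.54 FPKM in tpt-2 at 18 h, against 2.43, 1.997 and 1.39 FPKM in Col-0 at 18 h. The groups other than tpt-2 at 9 h did not overlap. Its log2 fold changes were 1.51 at 18 h (SE 0.21, limma adjusted p = 0.00386, range over the alternatives 0.00238 to 0.0278) and -2.14 with time in Col-0 (SE 0.21, limma adjusted p = 2.68e-05).

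AT2G05540, a glycine-rich protein gene, had the second largest margin of all 85, 2.23. It had 28.2, 30.8 and 20.9 FPKM in tpt-2 at 9 h, against 1.33, 1.08 and 1.40 FPKM in Col-0 at 9 h, and 2.57, 16.3 and 2.17 FPKM in tpt-2 at 18 h, against 1.09, 0.448 and 0.490 FPKM in Col-0 at 18 h. Replicate 2 of tpt-2 at 18 h was several times as high as the other two, and the gene was not called at 18 h (1.82, limma adjusted p = 0.0670). AT5G02160, another abundant gene, averaged 468 ± 34.5 FPKM in tpt-2 at 9 h, 118 ± 39.1 FPKM in Col-0 at 9 h, 134 ± 15.6 FPKM in tpt-2 at 18 h and 131 ± 8.18 FPKM in Col-0 at 18 h (SD, n = 3 each). AT3G10020, another gene with a margin of at least 1.5, averaged 44.4 ± 7.002 FPKM in tpt-2 at 9 h and 12.6 ± 3.80 FPKM in Col-0 at 9 h (SD, n = 3 each). The AT5G02160 level at 18 h differed between genotypes by 0.03 on the log2 scale (SE 0.19, limma adjusted p = 0.945). AT3G62550, annotated as an adenine nucleotide alpha hydrolase-like protein, had 135, 141 and 150.4 FPKM in tpt-2 at 9 h, against 56.8, 48.4 and 38.3 FPKM in Col-0 at 9 h, and was lower in Col-0 at 18 h (-0.90, limma adjusted p = 0.00102).

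The other genes of this group called higher in tpt-2 at 18 h were AT5G19190 (1.37, limma adjusted p = 0.0136), AT1G25230 (1.18, limma adjusted p = 0.0138), AT5G40450 (0.93, limma adjusted p = 0.0393, up to 0.149 in the alternatives), AT5G16030 (0.91, limma adjusted p = 0.0412, up to 0.164) and AT5G62280 (1.49, limma adjusted p = 0.0243, up to 0.107). AT5G16030 is overlapped on the other strand by a long non-coding RNA gene over 1063 bp. AT5G62280 rested on 4, 3 and 0 fragments in the Col-0 18 h libraries, so that its fold change has a large counting error. AT5G56100, annotated as a glycine-rich protein or oleosin, had the most negative fold change of the 85 at 18 h, with 0.698, 1.67 and 1.83 FPKM in tpt-2 at 18 h, against 1.75, 3.64 and 3.63 FPKM in Col-0 at 18 h (-0.73, limma adjusted p = 0.155). It overlaps its neighbour AT5G56090 by 81 bp on the same strand.

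The 4 non-coding genes were called in neither comparison (limma; at an unadjusted p under 0.05, 1 of 4 was higher in tpt-2 at 18 h and 0 were lower in Col-0 at 18 h). The libraries were made from RNA caught on poly-T beads, which select longer polyadenylated transcripts. Mature miR167d, encoded at chr1:11137556-11137577 on the plus strand, is shown because its family targets auxin response factor genes; capitals mark the seed, bases 2 to 8.
miR167d: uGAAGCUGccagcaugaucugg
The MIR167d locus had 11.1, 11.9 and 7.66 FPKM in tpt-2 at 9 h, against 4.98, 3.01 and 2.30 FPKM in Col-0 at 9 h, and 6.05, 7.23 and 1.03 FPKM in tpt-2 at 18 h, against 3.20, 2.15 and 2.14 FPKM in Col-0 at 18 h. The libraries of MIR167d overlapped between genotypes at 18 h, and the mature microRNA was not measured. The proline tRNA genes AT1G28950 and AT1G28820 had 0 to 11 fragments per library, so their levels are uncertain. Both lie within other annotated transcripts on the opposite strand.

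Genes of 9 lists drawn up for the processes above were then examined outside the 85, to describe whether others of the same kind differed between genotypes. The lists were drawn up with earlier results of these data known, so their counts are not an independent check. The lists held 6 of the 85 themselves under low energy (of 32 listed), 3 under expansins and xyloglucan enzymes (of 22) and 1 under auxin responses (of 22). Leaving them out lowers the counts at 9 h by choice. None of the 15 loci set aside by name stands in a list, so the counts leave those genes out too. Over all 17585 genes, limma called 22.3% at 9 h, 13.6% higher in tpt-2 and 8.72% lower. That split was 2383 higher and 1534 lower as deposited, 1519 and 2244 after median-ratio scaling, and 1642 and 1807 after quantile normalization. Of the 122 listed genes that were tested, 41 were called higher in tpt-2 at 9 h and 9 lower, with a median log2 fold change of 0.27, against 0.07 for all genes.

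Low-energy and sugar-repressed genes outside the 85 were higher in tpt-2 at 9 h in 17 of 24 cases and lower in 1, with a median log2 fold change of 0.80. After the scalings the counts were 17 and 16 higher and 1 lower in both, and with any 1 library left out 14 to 18 were higher. The gene that was lower was bZIP11, a bZIP factor gene whose translation is known to be repressed by sucrose. bZIP11 averaged 21.9 ± 1.25 FPKM in tpt-2 at 9 h and 48.6 ± 5.28 FPKM in Col-0 at 9 h (SD, n = 3 each), with a log2 fold change of -1.11 (limma adjusted p = 1.29e-05). At 18 h 0 of the 24 were called in either direction (limma; 4 higher and 0 lower at an unadjusted p under 0.05), with a median of 0.22, against 0.09 for all genes. Whether the difference changed between the times was not tested for these lists.

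Auxin response genes outside the 85 were called higher in tpt-2 at 9 h in 7 of 18 cases and lower in 0, with a median of 0.62. The count was 5 after median-ratio scaling and 3 after quantile normalization, and 2 to 8 with any 1 library left out. It was 2 without Col-0 9 h replicate 2 and 2 without tpt-2 9 h replicate 1. At 18 h, where all genes were called in 2.88% of cases, 3 of 18 were higher in tpt-2 (IAA19, SAUR16 and SAUR21) and 0 lower, with a median of 0.58. SAUR16 averaged 29.7 ± 8.25 FPKM in tpt-2 at 18 h and 12.7 ± 2.38 FPKM in Col-0 at 18 h (SD, n = 3 each; log2 fold change 1.14, limma adjusted p = 0.0136). The SAUR genes of this list include near-identical copies, so their reads may be divided wrongly. All calls at 18 h in the lists, 5 higher and 1 lower of 122, were lost without Col-0 18 h replicate 2 or without Col-0 18 h replicate 3.

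Expansin and xyloglucan enzyme genes outside the 85 moved in both directions at 9 h, with 3 of 17 higher in tpt-2 (EXPA1, EXPA11 and XTH16) and 3 lower (EXPA4, EXPA10 and EXPA15), and 2 higher and 4 lower after median-ratio scaling. With any 1 library left out, 1 to 4 were higher and 2 to 4 lower, with the fewest, 1 higher and 2 lower, without Col-0 9 h replicate 2. EXPA10 averaged 56.0 ± 14.04 FPKM in tpt-2 at 9 h and 115 ± 28.2 FPKM in Col-0 at 9 h (SD, n = 3 each), with a log2 fold change of -1.02 (limma adjusted p = 0.00880). At 18 h XTH16 was the only one called, and it was higher in tpt-2 (log2 fold change 0.59, limma adjusted p = 0.0472), a call lost after either scaling, without any 1 of the 6 libraries of 18 h and without tpt-2 9 h replicate 2.

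Of 7 tested genes of shade responses, 3 were higher in tpt-2 at 9 h (HFR1, PAR1 and PAR2) and 0 lower. The count was 2 after either scaling, and 1 without tpt-2 9 h replicate 1 or without tpt-2 9 h replicate 3. Of 19 clock genes, 5 were higher at 9 h (PRR5, TOC1, ELF3, BOA and CDF2) and 0 lower, with a median of 0.34. At 18 h LUX was the clock gene called, higher in tpt-2 (0.52, limma adjusted p = 0.0143). With median-ratio scaling 1 clock gene was higher (LUX) and 1 lower (LHY) at 18 h, and with quantile normalization 0 were higher and 1 lower (LHY, -0.71, limma adjusted p = 0.0483, against -0.57 and 0.0783 as deposited). Of 18 amino acid catabolism genes, 5 were called higher at 9 h (MCCB, BCKDH E1A2, ALDH6B2, D2HGDH and ETFQO) and 2 lower (P5CDH and TAT7). After median-ratio scaling 3 were higher and 2 lower. With any 1 library left out, 3 to 7 were higher and 0 to 2 lower, with 3 higher and 0 lower without Col-0 9 h replicate 2 or without tpt-2 9 h replicate 1, 3 higher and 1 lower without tpt-2 9 h replicate 2, and 1 lower in most of the other fits. At 18 h CHY1 of that list was lower in tpt-2 (-0.33, limma adjusted p = 0.0296), a call lost without any 1 of the 6 libraries of 18 h. Among 6 nitrogen assimilation genes GLN1;4 was higher and NIA2 and NIR were lower in tpt-2 at 9 h. After median-ratio scaling 3 were lower, GLN1;1 being the third, and 0 were lower without Col-0 9 h replicate 2 or without tpt-2 9 h replicate 2. Of 6 jasmonate response genes, VSP1 was called lower at 9 h, a call lost after quantile normalization and in 9 of the 12 fits with 1 library left out. VSP1 had 28.4, 51.7 and 38.4 FPKM in tpt-2 at 9 h, against 65.2, 82.8 and 541.9 FPKM in Col-0 at 9 h, where replicate 3 stood far above the others. None of the 7 abscisic acid response genes tested was called by limma at 9 h or 18 h (at an unadjusted p under 0.05, 0 higher and 1 lower at 9 h, and 0 in either direction at 18 h). Yet all 7 had a negative fold change at 9 h, with a median of -0.60, against 0.07 for all genes. All 6 jasmonate genes were negative at 9 h too, with a median of -0.84, but Col-0 9 h replicate 3 was high for more of them than VSP1. JAZ1 had 7.125, 10.08 and 12.22 FPKM in tpt-2 at 9 h, against 8.593, 10.03 and 49.52 FPKM in Col-0 at 9 h. JAZ5 had 1.141, 2.31 and 1.497 FPKM in tpt-2 at 9 h, against 1.857, 1.875 and 14.76 FPKM in Col-0 at 9 h. Whether the 6 signs hold without that replicate was not tested. At 18 h 5 of the 7 abscisic acid genes and 2 of the 6 jasmonate genes were negative.

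**Figure D4:**
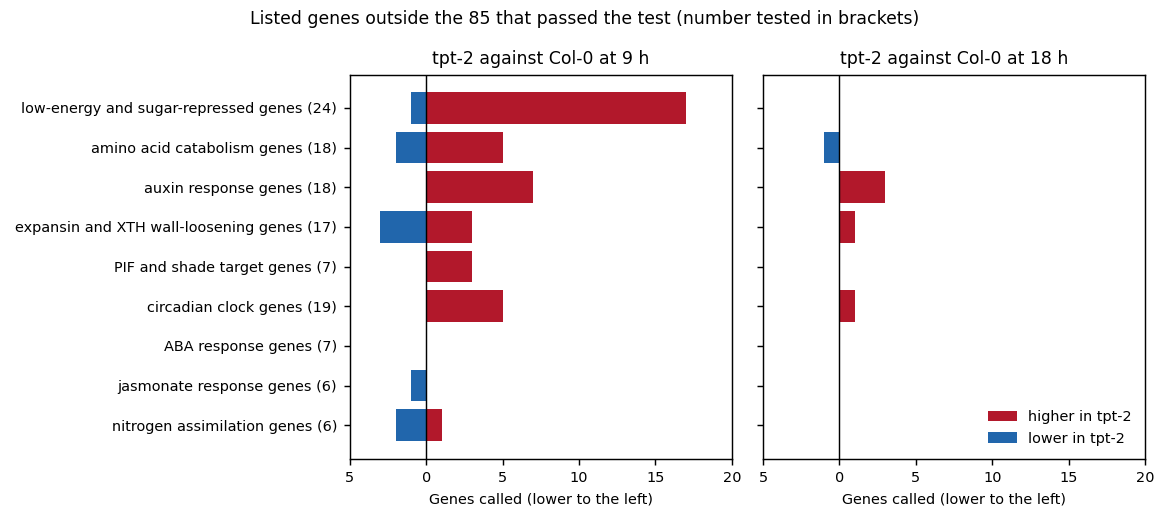
Number of genes of each list, outside the 85, called higher (right of 0) or lower (left of 0) in tpt-2 than in Col-0 at 9 h (left panel) and 18 h (right panel) by limma at an adjusted p under 0.05; the number tested stands in brackets. The low-energy list has 17 higher and 1 lower at 9 h and none at 18 h, and the auxin list has 7 higher at 9 h and 3 at 18 h. The lists were drawn up with earlier results of these data known.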

How the data were processed

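Leaf RNA of 12 samples, 4 groups of 3 biological replicates, had been sequenced after poly-T purification and dUTP strand marking, per the labels' protocols. The authors deposited FPKM per gene and library; HISAT2 2.0.5, featureCounts 1.5.0-p3 and TAIR10 are named in the submitters' processing notes, and whether counting used the strand is not given in the sources used here. All 12 value columns matched a sample title. Members, lists, roles and motifs were chosen with earlier results of these data known. Genes named singly had the largest margins or levels, were called, stood in a list, lay next to a threshold or have a well-known role.

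FPKM values were used as deposited, on the log2(FPKM + 1) scale, with no further scaling. limma 3.58.1 (R 4.3.3) fitted the 4 groups together with a trended prior, for the 17585 genes averaging 1 FPKM or more. The count of fragments behind each value was worked out from the step size of low values and the mean annotated transcript length, which made 99.5% to 99.6% of the values of up to 20 fragments whole within 0.05. A limit of 3 fragments corresponds to 0.117 to 0.244 per 1e06. On simulated data with 200 genes changed by a fixed fold, the test recovered 78.5% at 18 h and 71% in Col-0 over time (17402 genes). The simulation gave all other genes equal means in the 4 groups and every gene the same dispersion, unlike the real data. These shares are therefore not the power of the real tests. Replicates of a group correlated at 0.986 to 0.996 and none held identical values. Promoters, coordinates and miR167d are from RefSeq TAIR10.1. Alternatives were another pseudocount, filters, scalings, only the 6 libraries compared, a replicate block and leaving out each library.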

Additional observations from a re-analysis of the deposited data

How the results depend on the processing

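Of the 85 genes, 19 were called higher in tpt-2 at 18 h. The number was 12 with no filter on the mean FPKM, 12 after quantile normalization and 12 with the replicate number as a block, 15 to 22 in the other settings with all libraries, and 3 to 23 with 1 library left out. It was 3 without Col-0 18 h replicate 2, 3 without Col-0 18 h replicate 3 and 8 without tpt-2 18 h replicate 2. None of these fits called any of the 85 lower at 18 h. The cause was not tested. In Col-0 at 18 h against 9 h, 32 genes were called, and 23 to 34 with 1 library left out. The listed genes outside the 85 gave 50 calls at 9 h, 35 to 50 in other settings and 34 to 52 with 1 library left out. At 18 h they gave 6 calls, and 0 to 9 with 1 library left out (0 without Col-0 18 h replicate 2 or replicate 3, 2 without tpt-2 18 h replicate 2 and 3 without Col-0 18 h replicate 1). Whether replicate numbers pair the samples was not settled. Same-numbered pairs correlated at -0.34 to 0.14 and 5 of 18 exceeded 0.1, against 10 of 36 other pairs. Between Col-0 at 18 h and Col-0 at 9 h, same-numbered pairs correlated at 0.14, 0.09 and 0.10, and other pairs at -0.19 to 0.09. With the replicate block the calls were 12 at 18 h, 30 in Col-0 over time, and 46 and 5 for the lists. The rule found 69 to 122 genes with 1 library left out, 108 with a pseudocount of 0.1, 72 after median-ratio scaling and 79 after quantile normalization. No single gene among the 85 changed the direction of a call. Levels under 3 fragments in a library, as in RL6, AT5G62280, IAA29 and both tRNA genes, limit what can be read from those genes.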
